A study of Homo sapiens with 8 samples.

Results

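RBFOX2 peaks in the last kilobase of protein-coding genes were examined in HEK293T cells. They numbered 14018 of the 1118316 called peaks (1.25%), with 3225, 3481, 3737 and 3575 in replicates 1 to 4. A peak was taken when its midpoint lay in exactly 1 annotated gene span of chromosomes 1 to 22, the gene was protein-coding and between 20 and 500 kb long, and the midpoint was within 1000 nt of the 3′ end as read on the strand of the peak. No measured value of the peaks entered this choice.

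The series measured RNA bound by RBFOX2 with eCLIP, in which ultraviolet light fixes a protein to the RNA it touches, the protein is immunoprecipitated (IP) and the attached RNA is sequenced. HEK293T is a transformed human embryonic kidney cell line, and it was the only cell line used. There were 4 IP samples against RBFOX2 and 4 Input samples, both from crosslinked HEK293T cells (254 nm, 400 mJ per square centimetre), the Input being 2% of the material, kept back as the partner of an IP. The labels do not say whether the 4 numbered pairs came from separate cultures, so a p-value measures only the spread between these samples, which may be technical.

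RBFOX2 is an RNA-binding protein that recognises GCATG in RNA, where T stands for U, and is best known for directing alternative splicing from introns next to its exons. It also binds 3′ untranslated regions, where RNA-binding proteins and microRNAs act on the stability and translation of a message. The last kilobase of a gene holds its cleavage and polyadenylation site and, in many genes, most of the 3′ untranslated region. Exon and untranslated-region boundaries were not used here, so a position is given only as a distance from the end of the annotated span (RefSeq, GRCh38.p14).

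Letters could be read for few of these peaks, and none of the enriched ones. The promoter windows of RefSeq (GRCh38.p14, 300 nt each, on either strand) touched 58 of the 14018 peaks, 39 of them fully inside a window. The motif GCATG stood on the peak strand in 11 of the 34 distinct windows, while 19.6% of all 35116 windows held it on the strand of their gene and 19.1% on the other strand. No other motif was searched. The motif overlapped 5 of the peaks, at the 2 places shown here because they are the only readable sites of the motif under a last-kilobase peak (29 nt, 5′ to 3′ on the minus strand, motif in capitals).
L3HYPDH, chr14:59465566-59465594: ggtcatttgtttGCATGccagtcggcact
STRN4, chr19:46719770-46719798: cccctccctgggGCATGgagggtggagtg

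The L3HYPDH site lay under a peak of replicate 3 alone, with a log2 fold of IP over input of 0.000771. The STRN4 site was overlapped by a peak in every replicate, with log2 folds of −0.000866, 1.59, 1.17 and −1.59 in replicates 1 to 4. The peak of replicate 4, with the fold of −1.59, covered only part of the motif. A readable motif was thus accompanied by folds of either sign, and by no enriched peak. A match of letters is a description and not a binding site.

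Each deposited list holds called peaks with the −log10 of a p-value and the log2 fold of the IP over its paired input, and includes peaks with no enrichment. The 4 lists hold between 267691 and 288305 peaks. Folds move in steps, and the commonest fold of a list, near 0, is shared by 32.8% ± 0.992 (SD, n = 4) of last-kilobase peaks. No read counts were used here, the sequencing depth is therefore unknown, and counting intervals are not given. A peak is called enriched below at a log2 fold of at least 3, which is 3 doublings, with a −log10 p of at least 3.

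Few last-kilobase peaks were enriched, and the share was lower than inside the same class of genes. In replicates 1 to 4, 8, 15, 9 and 14 last-kilobase peaks were enriched, which is 0.248%, 0.431%, 0.241% and 0.392% of them. Among all called peaks the enriched share was 0.861%, 0.848%, 0.789% and 0.775%, so the last kilobase was below the list it came from in each replicate. The mean was 0.328% ± 0.0977 for the last kilobase, 0.793% ± 0.0380 for the gene interior (over 1000 nt from both ends, 700936 peaks) and 0.543% ± 0.0682 for the first kilobase (30207 peaks; SD, n = 4 for each).

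The difference from the interior was −0.465 ± 0.108 percentage points (SD, n = 4) and was negative in 4 of 4 replicates (exact two-sided sign-flip permutation, p = 0.13, the smallest that 4 replicates can give). The difference from the first kilobase was −0.215 ± 0.103 points, also negative in 4 of 4 (exact sign-flip permutation, p = 0.13). With a window of 500 nt at both ends the second difference turned to 0.0312 ± 0.111 points (exact sign-flip permutation, p = 0.625), and in genes of any length it was −0.0351 ± 0.0671 points (exact sign-flip permutation, p = 0.5). Among peaks of at least 50 nt it was −0.155 ± 0.157 points (exact sign-flip permutation, p = 0.25), so the order of the gene's ends reversed with the shorter window and did not hold in every replicate with these other choices of genes or peaks. No 4-replicate test of this kind can pass 0.05, and only the direction and the spread are given.

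The strongest last-kilobase peaks were weaker than the strongest interior peaks. The highest log2 fold in replicates 1 to 4 was 5.43, 4.32, 4.39 and 5.04 in the last kilobase, against 8.13, 8.08, 7.69 and 7.39 in the interior. The highest −log10 p was 11.3, 12.1, 9.89 and 9.39, against 89.0, 79.2, 68.2 and 83.4. The interior holds many more peaks, and a maximum grows with the number of peaks. The median peak length was 48.0 nt ± 0.816 in the last kilobase and 48.2 nt ± 1.5 in the interior (SD, n = 4). Enriched last-kilobase peaks had a median length of 105 nt ± 13.6 (SD, n = 4).

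**Figure D1:**
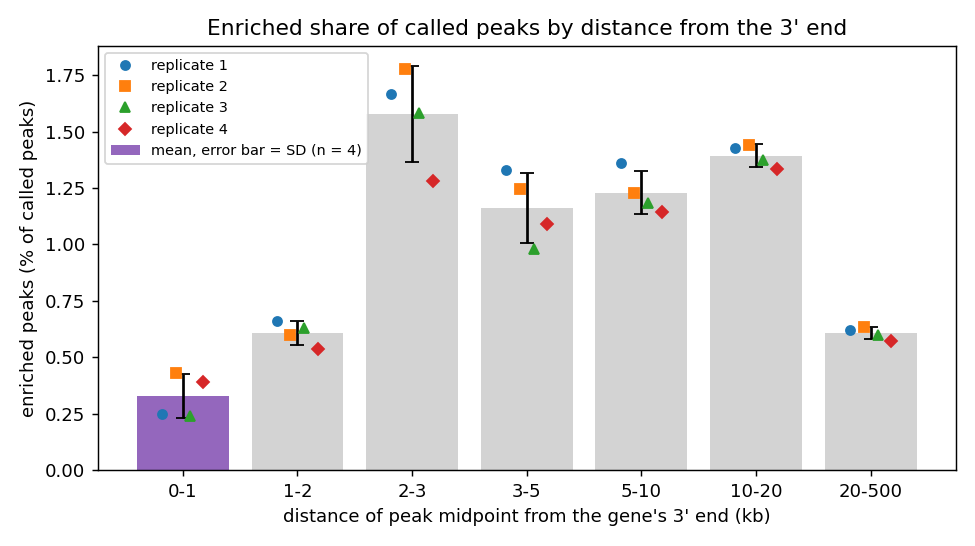
Enriched peaks as a percentage of called peaks (vertical axis) by distance of the peak midpoint from the 3′ end of the gene in kb (horizontal axis), with bars for the mean, error bars for the SD over 4 replicates and a point for each replicate. The last kilobase (purple) has the lowest bar, at 0.328%, and the window from 2 to 3 kb has the highest, at 1.58%.

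The share of enriched peaks changed with distance from the 3′ end. It was 0.606% ± 0.0531 between 1 and 2 kb, 1.58% ± 0.213 between 2 and 3 kb, 1.16% ± 0.156 from there to 5 kb, 1.23% ± 0.0949 to 10 kb, 1.39% ± 0.050 to 20 kb and 0.606% ± 0.0271 beyond (SD, n = 4). The last kilobase was below each of these windows in 4 of 4 replicates, by 0.278 points on average against the adjoining kilobase (SD 0.141; exact sign-flip permutation, p = 0.13). The high share between 2 and 3 kb was concentrated, since 5 genes (SCAP, AGRN, TYK2, KDM5A and BICD2, named after their values were seen) gave 124 of its 204 enriched peaks. Counted by genes with a peak in the window, 0.490% ± 0.124 had an enriched peak in the last kilobase, against 0.730% ± 0.146 in the adjoining kilobase and 0.947% ± 0.109 in the kilobase after it (SD, n = 4). By genes the difference from the adjoining kilobase was −0.239 ± 0.255 points and was not negative in every replicate (exact sign-flip permutation, p = 0.25). At the limit of the window, the 10 nt just inside it held 125 peaks with 1 enriched, and the 10 nt just outside held 136 with 4 enriched.

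Per length of gene the last kilobase was rich in peaks but not in enriched ones. In genes whose strand is known and in sequence covered by 1 span, there were 455 ± 29.8 called peaks per Mb on the strand of the gene in the last kilobase (6.512 Mb), 226 ± 7.15 in the interior (645 Mb) and 905 ± 6.83 in the first kilobase (6.902 Mb; SD, n = 4). The last kilobase thus held 2.01 ± 0.0734 times the peak density of the interior and 0.503 ± 0.0364 times that of the first kilobase. Enriched peaks numbered 1.27 ± 0.363 per Mb in the last kilobase, 1.83 ± 0.0825 in the interior and 4.78 ± 0.680 in the first kilobase. Their density in the last kilobase was below that of the interior in each replicate, with ratios between 0.424 and 0.891 (exact sign-flip permutation, p = 0.13). The level of each RNA in input, which differs along and between genes, was not measured here, and its part in these densities was not tested.

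Peaks thinned out at the very end of the gene. The last 100 nt held 226 ± 29.4 called peaks per replicate, the next 100 nt 390 ± 30.0, the stretch from 200 to 299 nt 406 ± 18.1 and the stretch from 900 to 1000 nt 337 ± 24.9 (SD, n = 4). The 46 enriched peaks were spread over the whole kilobase, with 2 to 7 in each 100 nt summed over the replicates. The last 100 nt also had the smallest share of peaks lower in IP, 23.7% ± 2.59 with a log2 fold below −0.5, against 31.6% ± 4.68 between 300 and 399 nt.

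**Figure D2:**
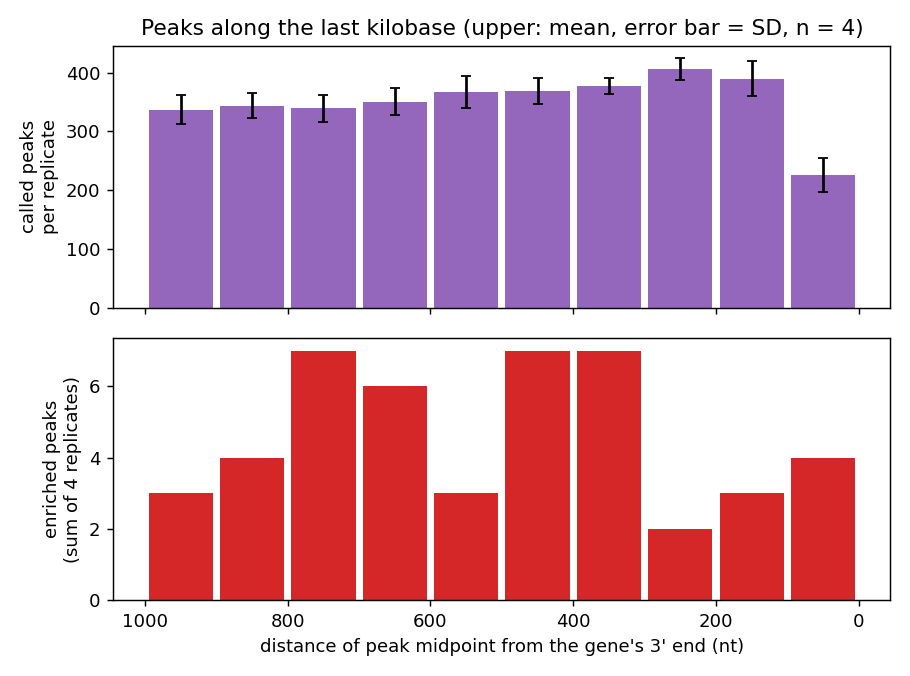
Called peaks per replicate in steps of 100 nt (upper panel, bars for the mean and error bars for the SD over 4 replicates) and enriched peaks summed over the 4 replicates (lower panel) by distance of the midpoint from the 3′ end in nt, with the end of the gene at the right. Called peaks fall to 226 in the last 100 nt, and enriched peaks number 2 to 7 in every step.

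Of the 14018 peaks, 11972 lay in genes whose strand is in the RefSeq promoter table. On these, 11865 (99.1%) were on the strand of the gene and 107 on the opposite strand, where the window is the 5′ end of the gene. For the other 2046 peaks (14.6%), among them those of PLEC, SCRIB and TCOF1, the end is the one read on the peak strand. Of the 46 enriched peaks, 33 were on the strand of their gene, 0 were opposite and 13 lay in genes of the second kind.

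As shares of all called peaks, more last-kilobase than interior peaks were lower in IP than in input. The share higher in IP differed by less than the spread between replicates. A log2 fold below −0.5 was found for 26.8%, 28.5%, 30.1% and 30.7% of last-kilobase peaks and for 22.5%, 23.3%, 23.7% and 22.8% of interior peaks in replicates 1 to 4. The groups of values did not overlap, and the difference was 5.97 ± 1.57 points (SD, n = 4; positive in 4 of 4; exact sign-flip permutation, p = 0.13). A log2 fold above 0.5 was found for 32.0% ± 2.71 against 31.1% ± 1.24, a difference of 0.903 ± 1.84 points with 3 of 4 replicates above 0 (exact sign-flip permutation, p = 0.375). The first kilobase had 29.2% ± 1.89 of its peaks below −0.5, and the last kilobase minus the first was −0.220 ± 1.49 points (SD, n = 4; exact sign-flip permutation, p = 0.875).

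At a log2 fold of −1 or below, the share exceeded that of the interior by 4.21 ± 1.31 points (SD, n = 4; exact sign-flip permutation, p = 0.13). Among peaks of at least 50 nt this difference was 1.99 ± 1.49 points (exact sign-flip permutation, p = 0.25). A step of the folds lies on either side of −1 in different lists, so a limit of −0.9 is the fairer one, at 24.6% ± 1.57 for the last kilobase and 20.6% ± 0.561 for the interior. None of the 4454 last-kilobase peaks with a fold below the commonest value (31.8%) has a deposited −log10 p above 0, so the deposited p does not speak to lower peaks. Fewer last-kilobase peaks sat at the commonest fold, 32.8% against 43.5% ± 0.882 in the interior, and the first kilobase was at 32.4% ± 1.34. The shares below −0.5 and above 0.5 have all called peaks as their base, so they also depend on this difference. They were not computed over the other peaks alone. Away from the commonest fold the median log2 fold was lower than in the interior (difference −0.459 ± 0.330, SD, n = 4; exact sign-flip permutation, p = 0.13).

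**Figure D3:**
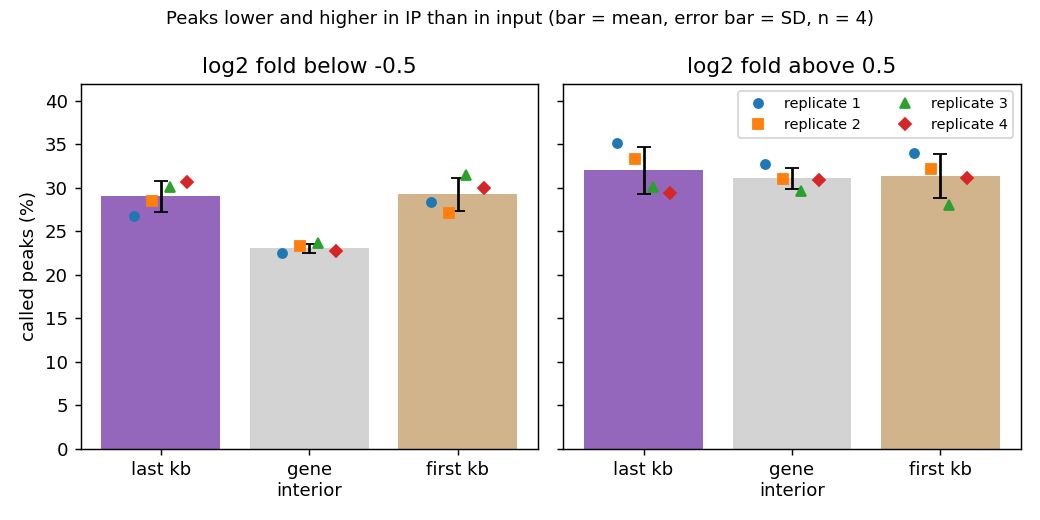
Percentage of called peaks with a log2 fold of IP over input below −0.5 (left) and above 0.5 (right) in the last kilobase, the gene interior and the first kilobase, with bars for the mean, error bars for the SD over 4 replicates and a point for each replicate. Peaks below −0.5 make up 29% in the last kilobase and 23.1% in the interior, while the bars above 0.5 are at 32.0% and 31.1%.

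Within single genes the last kilobase was slightly lower in the median, though the places differ in how many peaks were averaged. For each gene with a peak in both places (1929, 2005, 2093 and 2045 genes in replicates 1 to 4), the mean log2 fold of its interior peaks was subtracted from that of its last-kilobase peaks. The median over genes was −0.0667, −0.0703, −0.0765 and −0.123, a mean of −0.0842 ± 0.0265 (SD, n = 4; negative in 4 of 4; exact sign-flip permutation, p = 0.13). The last kilobase was the lower place in 54.8% ± 1.48 of genes, a small majority in each replicate. Without the peaks at the commonest fold of their list, the median difference was −0.240 ± 0.117 (SD, n = 4; exact sign-flip permutation, p = 0.13). Far fewer peaks per gene were averaged in the last kilobase. In replicate 1 it held 3225 peaks in 1947 genes, against 167527 in 6876 genes in the interior. Where folds are skewed towards high values, a mean of few tends to have a lower median than a mean of many. The part of this unequal averaging in the differences and in the share of genes was not tested.

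The last-kilobase peaks came from 3284 of the 10297 genes that could hold one. A peak was found in all 4 replicates in 969 genes and in 1 replicate alone in 994. Only 27 genes held an enriched peak, and 15 of them had no enriched peak elsewhere in the gene. GABBR1, a subunit of the metabotropic GABA receptor, held 4, and GGT7, of the gamma-glutamyltransferase family, MYBL2, a cell-cycle transcription factor, and ZNF638, a zinc finger protein that binds nucleic acid, held 3 each. ATP2A2 (the SERCA calcium pump of the endoplasmic reticulum), PLEC (plectin, which links cytoskeletal filaments) and TNKS2 (tankyrase 2, a poly-ADP-ribosyltransferase) held 2 each, and 19 genes held 1. The genes of this paragraph other than MYBL2 and TNKS2 were chosen after their values were seen.

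Genes differed in whether the last kilobase was the main place of enrichment. DNM1 and SNAP47 each had 1 enriched peak there, beside 101 and 100 elsewhere in the gene summed over the replicates. AKT2 had 1 there and 12 elsewhere. MYBL2 had 3 there and 5 elsewhere, GABBR1 4 and 3, and ZNF638 3 and 1. GGT7, ATP2A2, PLEC and TNKS2 had none elsewhere.

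Enriched last-kilobase peaks seldom recurred. In replicates 1 to 4, 20.8%, 17.8%, 22.2% and 26.2% of them shared 1 nt or more, on the same strand, with an enriched peak of another replicate (mean over the other 3). For interior peaks the share was 66.1% ± 2.28 and for first-kilobase peaks 55.4% ± 2.80, so the last kilobase was lower by 44.3 ± 1.66 and by 33.7 ± 3.38 points (SD, n = 4; lower in 4 of 4; exact sign-flip permutation, p = 0.13 for both). A called peak of any fold was nearly always there, in 97.3% ± 2.06 of cases against 97.2% ± 0.637 in the interior. Of last-kilobase peaks whatever their fold, 42.8% ± 1.56 had a called partner in another replicate, against 34.1% ± 0.682 in the interior and 52.5% ± 0.182 in the first kilobase.

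Enriched peaks that overlapped between replicates were joined, which gave 33 last-kilobase regions in 26 genes. Of these, 25 were enriched in 1 replicate, 6 in 2, 2 in 3 and 0 in 4. Across the whole series 47.2% of 3371 merged regions were enriched in 2 or more replicates, 27.0% in 3 or more and 16.4% in all 4, and in the interior 349 of 1903 were. Of the 33 regions, 30 had a called peak in every replicate, so a region missed the limit far more often than it lacked a peak. Without replicate 1, 1 region was enriched in all of the remaining 3, and without replicate 2 this was 1 region, in MYBL2.

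The region with the highest mean fold of those joined lay in MYBL2 (chr20:43715617-43715890, plus strand, 729 nt from the end of a gene span of 49.4 kb). Its log2 folds were 5.43, 2.76, 3.88 and 4.32 in replicates 1 to 4, a mean of 4.09 ± 1.1 (SD, n = 4). All 4 replicates were well above 0, and replicate 2 was the one under 3.

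In TNKS2 (chr10:91865038-91865146, plus strand, 383 nt from the end of a span of 67.05 kb) the log2 folds were 3.0, 2.59, 4.39 and 3.06 (mean 3.26 ± 0.785). Replicates 3 and 4 were enriched, and in replicate 1 the fold stood just under the limit with a −log10 p of 1.41.

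A further 4 genes, chosen after their values were seen, had a region enriched in 2 replicates. ZNF638 had log2 folds of 4.25, 3.70, 2.0 and 1.81 at 877 nt, PLEC had 3.81, 3.25, 2.81 and 1.38 at 102 nt, and both were enriched in replicates 1 and 2. GABBR1 had 2.54, 1.72, 3.17 and 3.58 at 998 nt and was enriched in replicates 3 and 4. This GABBR1 region straddles the limit of the window. Its peak of replicate 3 had its midpoint outside the last kilobase and is not among the 46 enriched peaks, while that of replicate 4 is. ATP2A2 had 2.46, 3.70, 3.70 and 0.736 at 393 nt and was enriched in replicates 2 and 3. The pair of replicates that passed differed between genes.

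**Figure D4:**
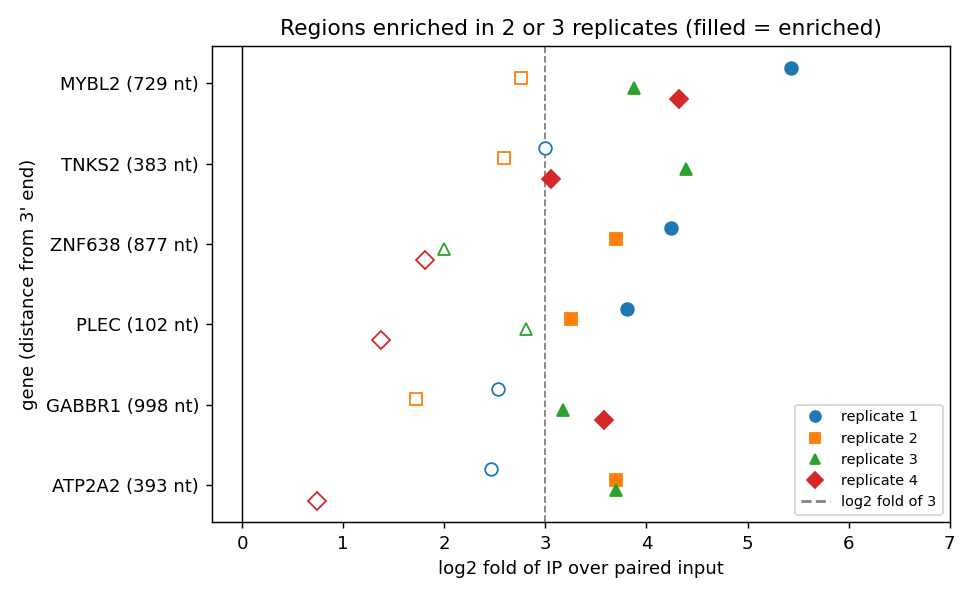
Log2 fold of IP over paired input (horizontal axis) in each of 4 replicates (symbols) for 6 last-kilobase regions enriched in 2 or 3 replicates, named by gene with the distance from the 3′ end, where filled symbols mark replicates in which the region was enriched and the dashed line is a log2 fold of 3. Every symbol lies above 0, from 0.736 in ATP2A2 to 5.43 in MYBL2, and none of these regions has 4 filled symbols.

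The mean fold of a region over the replicates was tested with limma. All called peaks, enriched or not, were merged over the replicates, and 49493 merged regions, those found in every list, entered the fit. Of these, 801 lay in the last kilobase, in 604 genes. They took in 3735 of the 14018 member peaks (26.6%) and 44 of the 46 enriched ones. The test thus leaves out most peaks, namely those not called in every list. Where a region held several peaks of a list, the most significant by its deposited p stood for the region. No last-kilobase peak below the commonest fold has a deposited −log10 p above 0. Such a peak was therefore passed over for any other with a −log10 p above 0, and this choice leans towards higher folds.

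Of the 801 regions, 113 in 84 genes were called higher in IP (limma, p adjusted by Benjamini-Hochberg over all 49493, threshold 0.05), which is 14.1% against a background of 20.6%. In the interior 21.5% were called higher and in the first kilobase 10.9%. Called lower were 19 regions in 19 genes, 2.37% against a background of 1.77%, with 1.07% in the interior and 1.31% in the first kilobase. No gene had both. All 113 higher regions had a positive fold in 4 of 4 replicates, and in 8 of them the mean log2 fold was 3 or more. The median over all 801 mean log2 folds was 0.40, against 0.50 over all regions tested, 0.58 in the interior and 0.14 in the first kilobase.

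The mean log2 fold over last-kilobase regions was 0.52, 0.47, 0.43 and 0.33 in replicates 1 to 4. That was below the interior by 0.284 on average (difference −0.284 ± 0.0717, SD, n = 4; negative in 4 of 4; exact sign-flip permutation, p = 0.13). It was above the first kilobase by 0.157 ± 0.0910 (positive in 4 of 4; exact sign-flip permutation, p = 0.13). Among regions called in every list, the last kilobase thus lay between the other places. Across the 801 regions the folds of any 2 replicates had a Spearman correlation between 0.370 and 0.425 (6 pairs). Regions are not independent, and all lists share the steps of fold. The mean over pairs was 0.404, against 0.451 in the interior and 0.332 in the first kilobase.

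**Figure D5:**
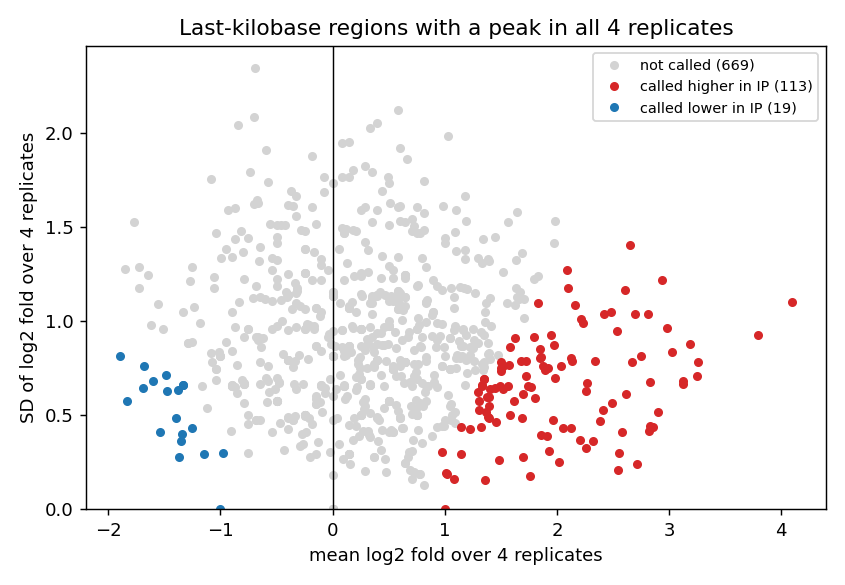
Mean log2 fold of IP over input (horizontal axis) and SD over 4 replicates (vertical axis) of the 801 last-kilobase regions found in every list, with red points for the 113 regions called higher by limma, blue points for the 19 called lower and grey points for the rest. Called regions lie towards either side and at smaller SD for a given mean, and the farthest right is MYBL2 at 4.09.

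The calls rest on all 4 replicates. With 1 left out, the lowest limma adjusted p of any region in the series was between 0.0392 and 0.0419, against 0.00409 with all 4. A call could then be kept only close to 0.05, and a call lost just above 0.05 was not far from that lowest value. Without replicates 1, 2, 3 and 4 in turn, 29, 36, 38 and 35 last-kilobase regions were called higher, of which 28, 32, 32 and 34 were among the 113, and 5, 1, 5 and 0 were called lower (34 at an unadjusted p under 0.05 without replicate 4). Over the whole series 20.6% of regions were called higher, and 7.01% to 8.77% with a replicate left out. In the last kilobase these shares were 14.1%, and 3.62% to 4.74%. Called lower over the whole series were 1.77%, and 0.471% to 0.548% with a replicate left out, against 2.37%, and 0% to 0.624%, in the last kilobase. Of the 113, 17 kept the call under each of the 4 omissions and 57 under none. Kept calls were not counted over the whole series, so these counts have no background. Against a log2 fold of 1 in place of 0, 26 were called higher and 0 lower, where 70 and 3 had an unadjusted p of at most 0.05. That was 3.25% higher and 0% lower, against 5.56% and 0.210% over the whole series.

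In the limma fit the merged MYBL2 region, now centred 713 nt from the end, had an adjusted p of 0.00706, and 0.0537 without replicate 3 and 0.0588 without replicate 4. TNKS2 had a limma adjusted p of 0.00688, and 0.0521 without replicate 1 and 0.0514 without replicate 4.

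Among the 17 regions whose call held under every omission were those of 5 genes chosen after their values were seen. SNAP47, a SNARE protein of membrane fusion, had log2 folds of 3.0, 2.81, 2.59 and 2.46 at 975 nt (mean 2.71 ± 0.239; limma, adjusted p = 0.00483). The enriched SNAP47 peak lay in another tested region, at 718 nt, which was not called. Its log2 folds were 0.999, 1.91, 1.00 and 4.0 (limma, adjusted p = 0.0716). RAB35, a small GTPase of endocytic recycling, had 2.81, 3.39, 2.32 and 2.91 at 164 nt (mean 2.86 ± 0.439). SSU72, a phosphatase of the RNA polymerase II tail that takes part in 3′ end formation, had 3.46, 2.59, 2.46 and 2.81 at 818 nt (mean 2.83 ± 0.444). GGT7 had 2.5, 2.88, 2.52 and 3.39 at 546 nt (mean 2.82 ± 0.416). DNAJB6, a co-chaperone, had 2.81, 2.26, 2.32 and 2.81 at 372 nt (mean 2.55 ± 0.297). In each of these 5 called regions every replicate was above a log2 fold of 2. With 1 replicate left out their limma adjusted p lay between 0.0392 and 0.0442, where the lowest of any region in the series was 0.0392 to 0.0419.

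Several regions of a gene were often called together, and regions of 1 gene share its transcript and are not independent. In 20 genes 2 or more regions were called higher. The genes named here were chosen after their values were seen. GABBR1 had 4 of 5, GGT7 and RAB35 3 of 3, and DNAJB6, HSP90AA1 (a heat-shock chaperone) and PSKH1 (a protein kinase) 3 of 4. CCDC61 had a called region with its midpoint 1 nt from the end of the gene, with log2 folds of 2.14, 3.70, 4.09 and 2.81 (mean 3.18 ± 0.880; limma, adjusted p = 0.00841). This region (chr19:46018423-46018808) ran past the annotated end, so its folds are not those of the last kilobase alone. Of the CCDC61 peaks in the last kilobase, only 1, of replicate 2, was enriched. The call of the region was lost without replicate 2 (limma, adjusted p = 0.0624) or replicate 4 (0.0557). Some calls rest on a single step of fold. SPG7 at 281 nt stood at a log2 fold of 1.00 in all 4 replicates and NEK3, a kinase, at −1.0 at 547 nt, and both had an adjusted p of 0.0330 by limma that was lost under each omission.

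The 5 lowest of the 19 regions called lower in IP lay in NUP155, GLUD1, DDX6, LBR and PTPRS. NUP155 is a nucleoporin of the nuclear pore, and its region 571 nt from the end had log2 folds of −1.42, −0.999, −2.58 and −2.59 in replicates 1 to 4 (mean −1.90 ± 0.813; limma, adjusted p = 0.0253). GLUD1 is a mitochondrial glutamate dehydrogenase, with −1.0, −2.0, −2.32 and −2.0 at 340 nt (mean −1.83 ± 0.573; adjusted p = 0.0172 by limma). DDX6 is an RNA helicase of translational repression and decay, with −2.42, −1.68, −0.847 and −1.81 at 938 nt (mean −1.69 ± 0.646; adjusted p = 0.0240 by limma). All 4 replicates were below 0 in each of these.

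LBR, the lamin B receptor, had log2 folds of −2.32, −1.81, −0.584 and −2.0 at 216 nt (mean −1.68 ± 0.760; limma, adjusted p = 0.0309). PTPRS, a receptor tyrosine phosphatase, had −1.0, −1.41, −2.58 and −1.42 at 395 nt (mean −1.60 ± 0.682; limma, adjusted p = 0.0295). Of the 19 lower calls, 14 were lost under each omission and 5 held under 1, a count not made over the whole series. DDX6 and LBR held without replicate 3 alone (adjusted p = 0.0454 and 0.0419), GLUD1 held without replicate 1 alone, and NUP155 and PTPRS held under none.

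Gene groups related to RBFOX2 function or to 3′ ends were then read against these calls, with 113 of 801 regions (14.1%) as the rate for all genes. Of all 10297 eligible genes, 3284 had a last-kilobase peak and 27 an enriched one. Among 10 genes described as RBFOX2 targets, 3 had a last-kilobase peak, and none was enriched. RBFOX2 itself had log2 folds between −1.32 and 0.586 over 7 peaks. ENAH, an actin regulator, had 2.32, 2.32, 1.59 and −0.000497 in replicates 1 to 4 in its tested region (mean 1.56 ± 1.1; limma, adjusted p = 0.0777, with an unadjusted p under 0.05). CLASP1, a microtubule-binding protein, had 3 peaks, at log2 folds of 0.00141, 1.00 and 1.00. The last kilobase of these 3 genes held peaks without a call. With 1 tested region in the group, no rate is read from it.

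None of the 3 fixed lists of RNA regulators (splicing, decay, and cleavage and polyadenylation) had a region called higher, although SSU72, which is on none of them, did. Splicing regulators had 20 of 46 eligible genes with a last-kilobase peak and 10 tested regions, with 0 called higher and 0 lower by limma (0 and 0 at an unadjusted p under 0.05), at a median mean log2 fold of 0.22. Factors of microRNA action and decay had 27 of 48 genes with a peak and 6 tested regions, with 0 higher (2 at an unadjusted p under 0.05) and 1 lower, the DDX6 region. Cleavage and polyadenylation factors had 10 of 15 genes with a peak and 3 tested regions, with 0 called by limma (0 at an unadjusted p under 0.05) and a median of −0.13. The median over all 801 regions was 0.40. These groups hold few tested regions, and no rate is read from them.

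In the other groups the members with a call were named after their values were seen. Membrane trafficking genes had 5 of 16 tested regions called higher, 3 in RAB35 and 1 each in SNAP47 and DNM1, and 0 lower, at a median of 0.61. DNM1, the dynamin of endocytic fission, had log2 folds of 1.14, 1.59, 3.81 and 1.87 at 961 nt (limma, adjusted p = 0.0394, lost under each omission). Chromatin regulators had 3 of 14 called higher, 2 in CHD3, a remodeller of the NuRD complex, and 1 in ASH1L, a histone methyltransferase, at a median of 0.34. Cytoskeletal genes had 2 of 12, in MAPRE1 (the microtubule end-binding protein EB1) and SPTAN1 (alpha-spectrin), at a median of 0.57. The calls of ASH1L, MAPRE1, SPTAN1, CHD3 at 999 nt and RAB35 at 541 nt were lost under each omission. CHD3 at 663 nt held without replicate 4 alone, and RAB35 at 371 nt was lost without replicate 2 (limma, adjusted p = 0.0519). Ubiquitin ligases and deubiquitinases had 0 of 12 called by limma and signalling kinases 0 of 4 (3 and 1 higher at an unadjusted p under 0.05). Among the kinases AKT2 and MINK1 each had 1 enriched peak in 1 replicate, and in no other.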

How the data were processed

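eCLIP of RBFOX2 in HEK293T cells gave 4 IP and 4 Input libraries. The authors deposited 1 peak list per IP, each with the matching Input as background. Per the submitters' processing notes, cutadapt 3.2, UMI-tools 1.1.1 and STAR 2.7.7a were used with hg38 and GRCh38.p13. The peak caller, its test and the scaling are not given in the sources used here. The lists have no header. The deposited −log10 p-values and the deposited log2 folds of IP over input were recognised from their values (never negative and at most 400, or of both signs). Depth is unknown, since counts were not used.

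Peaks were placed in RefSeq gene spans (GRCh38.p14) by midpoint, 1-based. Each replicate gave 1 value per class of peaks, and differences were tested over the 4 replicates by exact two-sided sign-flip permutation (smallest p 0.13). Peaks of different lists were joined where they overlapped by at least 1 nt on a strand. Regions called in all 4 lists took, per list, the fold of the peak with the highest −log10 p, and were tested against 0 with limma 3.58.1 in R 4.3.3 (intercept only, eBayes, Benjamini-Hochberg over 49493 regions, 0.05). The fit was run on simulated normal values drawn with its own estimates of spread. Those values lack the steps of the real folds, so that run does not bear on calls that rest on a step. Other work used Python 3.11.15, numpy 2.4.6, pandas 2.3.3 and matplotlib 3.10.9.

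Named were regions enriched in all 4 replicates (none), members of 9 gene groups enriched in at least 3 (none), the 5 lowest regions called lower, and the 3 genes with the most regions enriched in at least 2 replicates, ties by mean fold. Some results under this rule are not reported here. Members, groups and tests were chosen with earlier results of these data known.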

Additional observations from a re-analysis of the deposited data

How the results depend on the processing

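The enriched share stayed below that of the interior in every alternative run, from −0.916 to −0.203 points. The share itself was 0.328%, and became 0.0770% at a −log10 p of at least 5, 0.587% at a log2 fold of at least 1, 0.0942% at a fold of at least 4 whatever the p, 0.464% in a 2000 nt window, 0.611% in genes of any length and 0.661% among peaks of at least 50 nt. Against the first kilobase the difference reversed to 0.0312 points in a 500 nt window, and was −0.0351 in genes of any length and −0.155 among peaks of at least 50 nt. The excess of peaks lower in IP over the interior (4.21 points) was 1.99 among peaks of at least 50 nt and 3.94 at a limit of −0.9, and the within-gene difference (−0.0842) was −0.240 away from the commonest fold. The median fold away from the commonest value was 0.459 below the interior (difference −0.459), and 0 with the commonest value included.

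The sharing of enriched peaks (21.8%) was 50% at a −log10 p of at least 5, 49.4% at a fold of at least 1, 3.75% at a fold of at least 4, 26.9% and 36.2% in windows of 500 and 2000 nt, 41.4% in genes of any length, 15.0% in genes of known strand, 17.3% at a mutual overlap of 50%, 97.3% with any called partner and between 18.5% and 26.6% with a replicate left out. Regions enriched in all 4 replicates (0) numbered 5 at a fold of at least 1, 5 in a 2000 nt window, 6 in genes of any length, 30 if any called peak counts, and 0 to 1 with a replicate left out.

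Regions called higher by limma (113) numbered 26 against a log2 fold of 1, 56 and 236 in windows of 500 and 2000 nt, 347 in genes of any length, and 29 to 38 with a replicate left out. Regions called lower (19) numbered 0 against a fold of −1 (3 with an unadjusted p of at most 0.05), 12 with all peaks at least 30 nt long, 45 in a 2000 nt window, 46 in genes of any length, and 0 to 5 with a replicate left out. With folds averaged over the peaks of a region by length, 93 regions were called higher by limma and 21 lower. With the longest peak standing for a region, 99 were called higher and 18 lower. The cause of these changes was not tested. The windows and gene lengths also change which peaks are counted, and the omissions leave fewer samples. The part of either in the changes was not tested.

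The limits of −0.9, peaks away from the commonest fold and the adjoining kilobase were chosen after seeing the data. No paired analysis was possible because nothing was left to pair. The deposited folds already pair each IP with its input, so the tests over them are paired ones. Depth limits all shares in a way that cannot be stated without counts. None of 26 values tested over the 4 replicates had a replicate far from the others by Dixon's criterion. The within-gene difference came closest and fell just short of the limit. Replicate 4 was at −0.123 there, and replicates 1 to 3 were at −0.0667, −0.0703 and −0.0765. Without replicate 4 the mean was −0.0711 ± 0.00496 (SD over replicates 1 to 3). The 26 values include the same folds more than once for some regions, among them those of MYBL2 and TNKS2.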
